A study of Mus musculus with 24 samples.

Results

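The genes described here encode the collagen chains, the protein-coding genes whose symbols have the form Col, a number, a, and a number. The mouse annotation held 44 of them. Of these, 36 were among the 21755 genes counted in p16-3MR livers, 34 were among the 12643 genes counted in wild-type livers, and 34 were in both. The 8 chains counted in neither were Col2a1, Col6a4, Col9a1, Col9a2, Col10a1, Col11a1, Col19a1 and Col26a1, and Col4a6 and Col17a1 were counted in p16-3MR livers only. No measured level was used to choose the chains.

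Liver RNA was sequenced from 24 mice, in 8 groups of 3. p16-3MR mice carry a BAC in which the 3MR cassette sits at the p16Ink4a locus, so that cells with an active p16 promoter make HSV-tk, an enzyme that turns ganciclovir (GCV) into a toxin. Females (F) and males (M) of this genotype received GCV (150 mg per kg in the labels, whereas the study's methods state a lower dose) or vehicle (VEH; pH11 water) into the peritoneum on 5 days of each month, starting at 16 to 18 months of age. The study took the p16-3MR livers from its final and oldest subset of treated mice, many months after the first injections. Wild-type females and males, which lack the cassette, received VEH or GCV from 6 months of age, also on 5 days of each month. Their labels give the same GCV dose of 150 mg per kg, and their livers were taken after 3 months. All p16-3MR livers belonged to batch 1 and all wild-type livers to batch 2, so genotype, age and batch cannot be told apart and each genotype was analysed on its own. Livers are named here by the number in their labels.

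Each collagen is a triple helix of 3 chains, made from 1, 2 or 3 different genes. Fibrillar collagens (types I, III and V among them) form the tensile cables of scar and portal tissue. Type IV chains form the sheet of basement membranes, and types XV and XVIII are proteoglycans of the same zone. In the liver, stellate cells and portal fibroblasts are the main known sources of fibrillar collagen, sinusoidal endothelium and stellate cells make type IV collagen, and hepatocytes make type XVIII. In bulk tissue, fewer cells of a type and less RNA per cell cannot be told apart.

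Libraries held 5005760 to 7160172 counts in p16-3MR livers and 3084517 to 5667904 in wild-type livers. Levels are CPM, counts relative to the library total, after TMM scaling, and since reads come from the 3′ end of each transcript they are tag abundances. A count of 3 corresponded to 0.516 to 0.943 CPM in wild-type livers and to 0.293 to 0.578 CPM in p16-3MR livers, except GCV female liver 33, where it corresponded to 2.32 CPM. In liver 33, mitochondrially encoded genes took 64.0% of the counts, against 12.3% to 22.4% in the other 11 p16-3MR livers. Cdkn2a, the gene of p16, had 0 to 7 counts in each p16-3MR liver, too few to compare the groups. All 8 hepatocyte markers were counted in p16-3MR livers, with a summed level of 38457 to 167932 CPM, and the 3 whose wild-type labels named 1 gene summed to 25364 to 30786 CPM in wild-type livers.

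Most collagen counts in these livers were of Col18a1, the type XVIII chain whose cleaved end is endostatin. It made up 68.5% to 77.0% of all collagen counts in each wild-type liver and 6.34% to 77.7% in p16-3MR livers, where the lowest share was that of GCV male liver 32. The mean over 12 livers was at least 10 CPM for 12 of 36 chains in p16-3MR mice and for 8 of 34 in wild-type mice. It was under 1 CPM for 14 and 15 chains, respectively. The fibrillar class had 9 measured chains in each genotype, and the basement membrane class (types IV, VII, XV and XVIII) had 9 in p16-3MR and 8 in wild-type livers. The rest were the microfibrillar type VI chains, fibril-associated chains such as Col14a1, short network chains (type VIII), transmembrane chains and Col28a1.

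**Figure D1:**
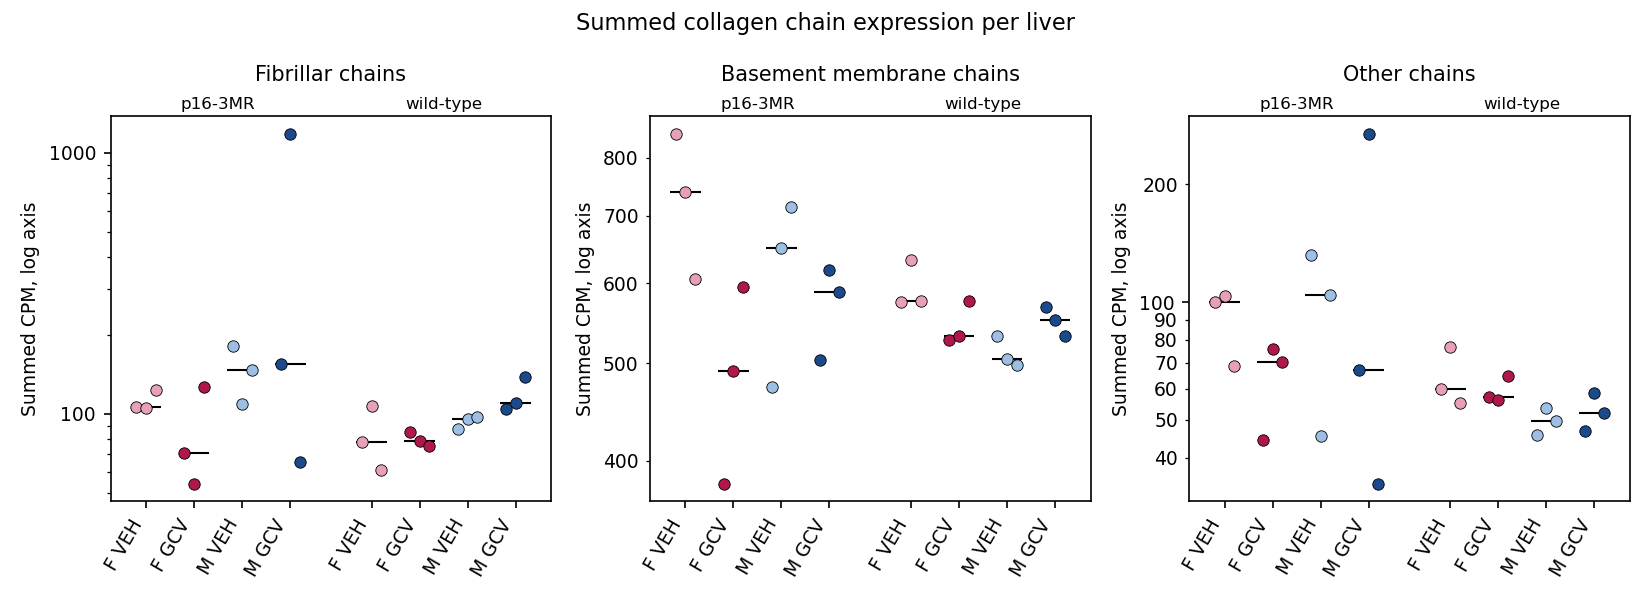
Summed level of the fibrillar, basement membrane and other collagen chains (CPM after TMM scaling, log axis) in each of the 24 livers, by genotype, sex and treatment; each point is 1 liver and each line is the median of 3. p16-3MR and wild-type levels were scaled separately. GCV male liver 32 stands at 1184 CPM of fibrillar chains, above the 54.1 to 182 CPM of the other 11 p16-3MR livers.

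Summed fibrillar levels were 105 to 124 CPM in VEH-treated and 54.1 to 127 CPM in GCV-treated p16-3MR females. They were 109 to 182 CPM in VEH-treated and 65.7, 155 and 1184 CPM in GCV-treated p16-3MR males. Groups overlapped in both sexes, and the 1184 CPM came from a single liver. Summed basement membrane levels were 605 to 845 CPM in VEH-treated and 379 to 595 CPM in GCV-treated p16-3MR females, which did not overlap, and 473 to 714 against 503 to 619 CPM in males. Col18a1 made up most of the sum in these females, and its own levels overlapped between the groups. For this and every later comparison, how many of all genes do not overlap was not counted. A lack of overlap is therefore given as a description only. Wild-type sums were 575 to 634 (F VEH), 527 to 576 (F GCV), 498 to 532 (M VEH) and 532 to 568 CPM (M GCV), overlapping in both sexes. In wild-type mice the fibrillar sums were 60.9 to 108 (F VEH), 75.5 to 85.4 (F GCV), 87.3 to 97.5 (M VEH) and 104 to 139 CPM (M GCV), overlapping in females and not in males.

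The first question was whether GCV changed collagen expression in p16-3MR females. No collagen chain passed an adjusted p of 0.05 (edgeR quasi-likelihood test, Benjamini-Hochberg over all 21755 genes), and 0% of all genes did. The common dispersion, the fitted spread between livers of a group, was 0.312 in p16-3MR and 0.0276 in wild-type livers. Changes of a given size were therefore harder to detect in p16-3MR livers. The study fitted these livers with DESeq2 and reported genes changed with GCV in females, and lower scores of extracellular matrix gene sets. At an unadjusted p under 0.05, 2 of 36 chains differed against 7.37% of all genes. These were Col5a3, lower with GCV, and Col4a3, higher with GCV. Of all 36 chains, 16 had a higher and 20 a lower fitted level, where 46.1% of all genes were higher and 49.8% lower. The median log2 fold change of the chains was -0.26 against 0 over all genes.

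Col5a3, a minor chain of type V collagen, measured 9.11, 15.2 and 4.91 CPM in VEH-treated and 2.51, 3.09 and 2.52 CPM in GCV-treated p16-3MR females. The groups did not overlap. Its log2 fold change was -1.87 ± 0.58 (SE; adjusted p = 0.646, edgeR). In liver 33 the Col5a3 level rested on 4 counts.

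Col4a3 encodes a chain that pairs with those of Col4a4 and Col4a5, best known from the filtering membrane of the kidney. It reached 11.6 CPM in GCV female liver 31, and 0 and 0.503 CPM in the other GCV-treated females, against 0.145 to 0.536 CPM in VEH-treated females. A single liver was high. Its log2 fold change of 3.36 became -0.20 without liver 31, whose Col4a4 level of 3.47 CPM was also the highest of the 12.

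Among the abundant chains, Col14a1, a fibril-associated chain, was at 62.3, 63.4 and 41.3 CPM in VEH-treated and 20.05, 2.32 and 36.2 CPM in GCV-treated p16-3MR females (log2 fold change -1.46 ± 0.79, adjusted p = 0.678, edgeR). Col1a2 was at 16.9, 14.2 and 15.9 CPM with VEH and 13.1, 9.27 and 13.2 CPM with GCV (-0.38 ± 0.87, adjusted p = 0.952, edgeR). Neither chain's groups overlapped, a pattern not counted over all genes, and neither difference passed the test. In liver 33 the Col14a1 level of 2.32 CPM rested on 3 counts. Col18a1 was at 752, 639 and 551 CPM with VEH and 317, 417 and 552 CPM with GCV (-0.60 ± 0.54, adjusted p = 0.763, edgeR). The last GCV value lay inside the VEH range.

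Col1a1, the larger share of type I collagen, was at 9.65, 11.9 and 12.6 CPM in VEH-treated and 11.2, 3.09 and 12.9 CPM in GCV-treated p16-3MR females. Col3a1, the chain of reticular fibres, was at 49.6, 38.6 and 61.5 CPM with VEH and 27.2, 18.5 and 45.6 CPM with GCV. Both overlapped. Col5a2 was at 7.10, 14.9 and 14.6 CPM with VEH and 4.82, 13.1 and 44.1 CPM with GCV, with liver 35 the highest. None of these passed the test.

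The 2 abundant type IV chains overlapped between the groups as well. Col4a1 was at 47.5, 56.0 and 27.2 CPM with VEH and 24.9, 51.0 and 19.6 CPM with GCV. Col4a2 was at 23.2, 24.9 and 16.2 CPM with VEH and 7.13, 20.1 and 10.1 CPM with GCV. The remaining chains above 10 CPM were also spread within groups. Col6a1, of the beaded type VI filaments, was at 6.43, 7.52 and 5.66 CPM with VEH and 4.43, 13.9 and 4.86 CPM with GCV. Col15a1 was at 17.3, 17.4 and 8.68 CPM with VEH and 15.4, 0 and 8.55 CPM with GCV, and the 0 in liver 33 allows up to 2.32 CPM. Col27a1 was at 5.36, 4.196 and 8.68 CPM with VEH and 6.94, 0.772 and 4.70 CPM with GCV.

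Markers of the other liver cell types were read in the same females. Of 10 sinusoidal endothelial markers, 4 had an unadjusted p under 0.05, against 7.37% of all genes, and a lower level with GCV (Dnase1l3, Gpr182, Oit3 and Kdr), and the list's summed level was 219 to 330 CPM with VEH and 157 to 244 CPM with GCV. The 12 stellate cell markers summed to 188 to 291 CPM with VEH and 137 to 263 CPM with GCV, and 1 of them (Hgf) was lower. Of 8 Kupffer cell markers, all 8 had a lower fitted level, where 49.8% of all genes were lower, and 1 (Adgre1) passed the unadjusted threshold. Their sums were 375 to 1133 CPM with VEH and 135 to 408 CPM with GCV, which overlapped. The part of these cell types in the collagen values of the females was not tested.

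In p16-3MR males, no chain passed an adjusted p of 0.05 (edgeR), and 0% of all genes did. At an unadjusted p under 0.05, 2 of 36 chains were higher with GCV, against 1.91% of all genes differing. Both were the chains of type I collagen, Col1a1 and Col1a2. Of all 36 chains, 25 had a higher and 11 a lower fitted level, where 52.8% of all genes were higher and 45.5% lower. The median log2 fold change of the chains was 0.56 against 0.04 over all genes. Without liver 32 the median was -0.53, with 10 higher and 26 lower, and no chain passed the unadjusted threshold. In that fit 43.8% of all genes were higher, 53.0% were lower and 1.47% passed the unadjusted threshold.

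Col1a1 was at 24.7, 3.75 and 9.85 CPM in VEH-treated and 25.8, 356 and 7.68 CPM in GCV-treated p16-3MR males. Its log2 fold change was 3.33 ± 1.09 (adjusted p = 1, edgeR) and 0.33 without liver 32. Col1a2 was at 33.6, 9.11 and 14.2 CPM with VEH and 25.9, 266 and 9.60 CPM with GCV. Its log2 fold change was 2.40 ± 0.89 (adjusted p = 1, edgeR) and -0.15 without liver 32. The other 2 GCV-treated males lay within the range of the VEH-treated males, except for the Col1a1 level of liver 30 (25.8 CPM against up to 24.7 CPM).

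GCV male liver 32 carried the highest level of 13 of the 22 chains with a mean of at least 1 CPM, whereas it was the highest liver for 20.8% of all 13296 genes of that level. Col3a1 reached 424 CPM there, against 52.3 and 21.9 CPM in the other GCV-treated males and 78.1, 24.6 and 49.2 CPM in VEH-treated males. Col4a1 reached 297 CPM, against 47.8 and 19.6 CPM with GCV and 89.9, 24.5 and 33.4 CPM with VEH. Col4a2 reached 169 CPM, against 21.8 and 11.1 CPM with GCV and 46.4, 12.5 and 17.8 CPM with VEH. Fibrillar and type IV chains were both high in this liver, whose TMM factor (1.80) was the highest of the 12.

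Col5a2 and Col6a1 followed, at 78.9 CPM in liver 32 against 8.17 and 4.03 CPM with GCV and 13.1, 3.04 and 7.03 CPM with VEH for Col5a2. Col6a1 was at 46.6 CPM against 6.06 and 4.99 CPM with GCV and 14.7, 5.18 and 12.7 CPM with VEH. Col14a1 was at 114 CPM against 38.2 and 12.9 CPM with GCV and 83.3, 24.8 and 56.1 CPM with VEH. Not all chains were high there. Col18a1 was at 131 CPM in liver 32, the lowest of the 12 livers, against 422 and 535 CPM with GCV and 331, 601 and 653 CPM with VEH.

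Col5a3 was at 10.04, 33.4 and 29.5 CPM in VEH-treated and 21.7, 9.66 and 9.03 CPM in GCV-treated p16-3MR males, and Col27a1 at 5.48, 30.4 and 29.9 CPM with VEH and 8.03, 6.93 and 11.5 CPM with GCV. For both, VEH male liver 24 was low among the VEH-treated males. Col15a1 was at 3.03, 10.2 and 6.72 CPM with VEH and 8.74, 17.6 and 17.7 CPM with GCV. None of the 3 passed the test.

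Marker levels differed in liver 32 as well. Its summed hepatocyte markers (38457 CPM) were the lowest of the 12 p16-3MR livers, followed by those of VEH male liver 24 (56074 CPM), and the other 10 had 100402 to 167932 CPM. Its stellate cell (459 CPM), portal fibroblast and myofibroblast (74.2 CPM), sinusoidal endothelial (541 CPM) and Kupffer cell sums (4032 CPM) were each the highest, with VEH male liver 24 the second highest for each (352, 36.8, 366 and 2302 CPM). Leaving out VEH male liver 24 gave a Col1a1 change of 4.29 and a Col1a2 change of 3.15. The part of these cell types in the collagen values was not tested.

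**Figure D2:**
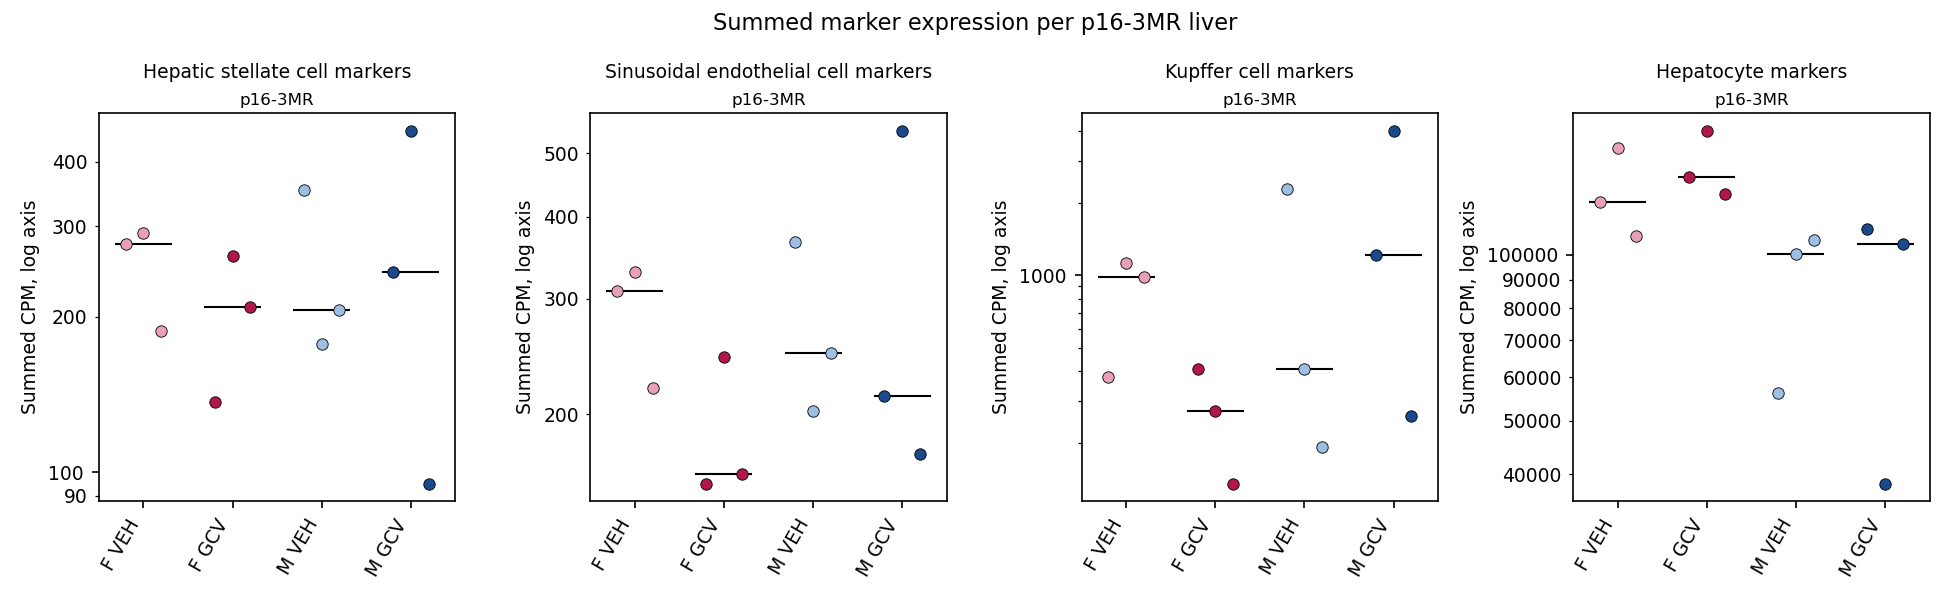
Summed marker level of hepatic stellate cells (12 genes), sinusoidal endothelial cells (10), Kupffer cells (8) and hepatocytes (8) in each p16-3MR liver (CPM after TMM scaling, log axis); each point is 1 liver and each line the median of 3. GCV male liver 32 is the highest in the first 3 panels and the lowest in the last, at 38457 CPM.

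Whether females and males differed in the GCV change was tested directly. In p16-3MR mice no chain and 0% of all genes passed an adjusted p of 0.05 (edgeR), and 4 of 36 chains against 3.78% of all genes passed an unadjusted p of 0.05. The 4 were Col1a1 (-3.59 on the log2 scale, females minus males), Col1a2 (-2.78), Col4a6 (-6.32) and Col22a1 (4.51). Col4a6 and Col22a1 had means of 0.234 and 0.307 CPM, at or under the level of 3 counts in most livers. Without GCV male liver 32 the Col1a1 and Col1a2 differences were -0.63 and -0.29.

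**Figure D3:**
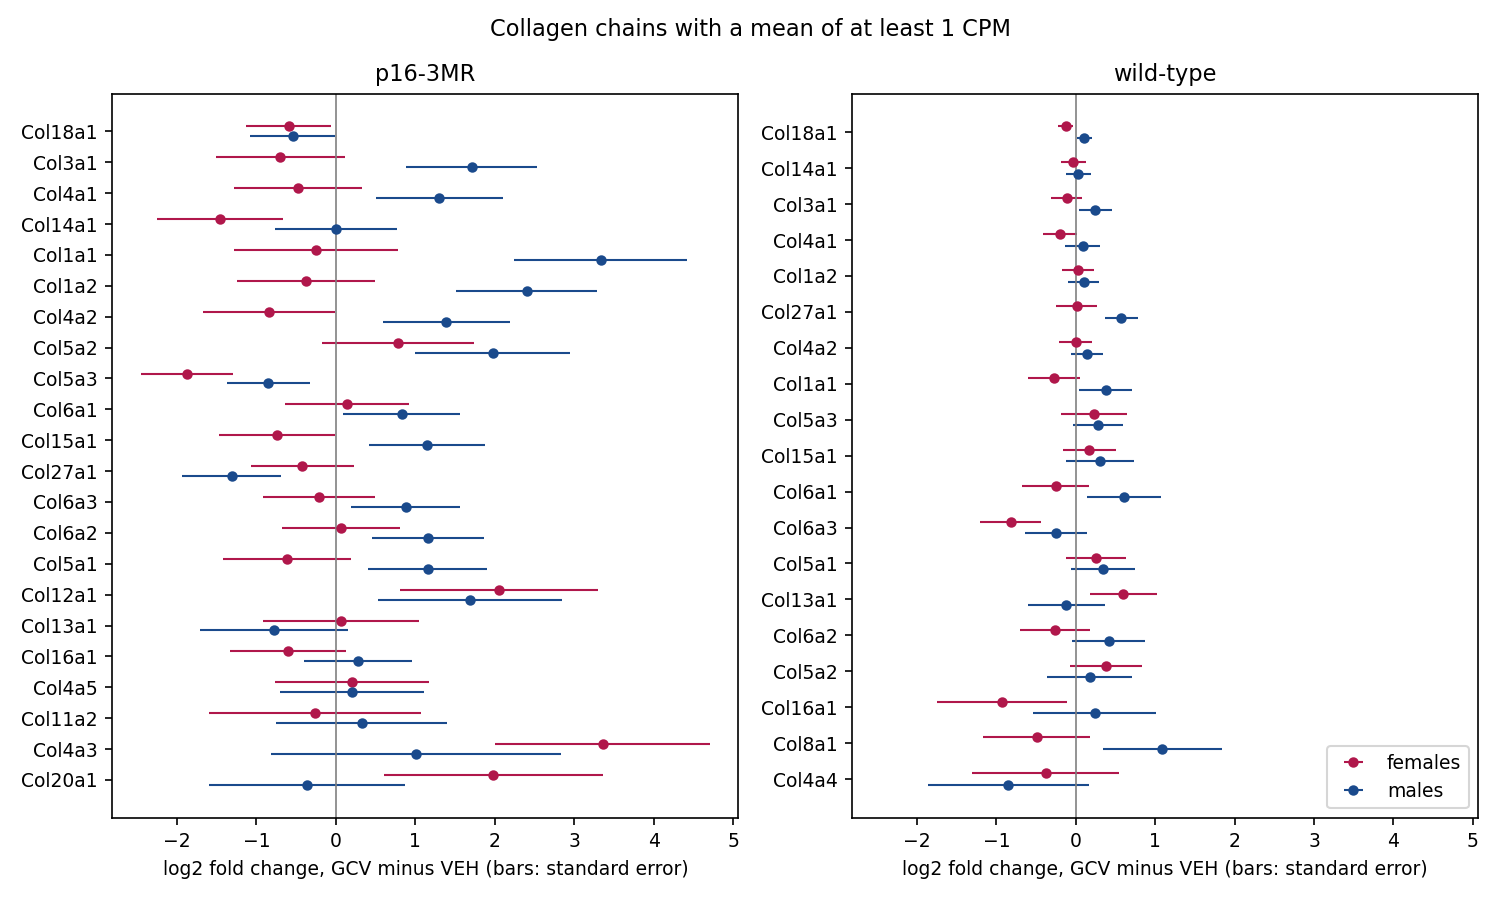
Fitted log2 fold change (GCV minus VEH) with its standard error for each collagen chain with a mean of at least 1 CPM, in females and males, for p16-3MR (22 chains) and wild-type livers (19 chains), ordered by mean level. Col1a1 reaches 3.33 in p16-3MR males, and wild-type changes of the abundant chains lie near 0 with shorter error bars.

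In wild-type females, which lack the cassette, no chain and 0.00791% of all genes passed an adjusted p of 0.05 for GCV against VEH (edgeR). At an unadjusted p under 0.05, 1 of 34 chains against 4.56% of all genes differed. This was Col6a3, which was at 4.64, 6.86 and 6.11 CPM with VEH and 2.26, 2.88 and 4.56 CPM with GCV (log2 fold change -0.82, adjusted p = 1, edgeR). In wild-type males no chain and 0% of all genes passed an adjusted p of 0.05, and 1 of 34 chains against 5.06% of all genes passed unadjusted. It was Col27a1, at 14.4, 26.2 and 27.3 CPM with VEH and 30.5, 32.4 and 39.1 CPM with GCV (0.57 ± 0.21, adjusted p = 0.889, edgeR). Its groups did not overlap. Of all 34 chains, 14 were higher and 20 lower in females (median log2 fold change -0.12 against 0 over all genes). In males 26 were higher and 8 lower (0.26 against 0.00). Over all genes, 49.2% were higher and 49.5% lower in females, and 50.2% higher and 47.6% lower in males. Of these chains, 14 had a mean under 3 counts.

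Among the abundant chains of wild-type livers, Col18a1 was at 533, 575 and 533 CPM in VEH-treated females, 478, 496 and 528 CPM in GCV-treated females, 489, 468 and 468 CPM in VEH-treated males and 532, 508 and 496 CPM in GCV-treated males. GCV and VEH did not overlap in either sex, lower in females and higher in males with GCV, and neither change passed the test. How many of all genes show such a pattern was not counted. Col3a1 was at 33.7, 43.1 and 23.5 CPM, 36.1, 32.5 and 24.6 CPM, 29.3, 25.1 and 28.1 CPM, and 27.7, 31.2 and 39.1 CPM in the same order. Col14a1 was at 37.3, 46.7 and 35.5 CPM, 36.8, 35.1 and 44.5 CPM, 26.6, 36.7 and 34.6 CPM, and 33.96, 35.1 and 31.4 CPM. For both chains GCV and VEH overlapped in each sex.

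The type I chains overlapped between GCV and VEH in each sex. Col1a1 was at 7.22, 22.3 and 8.93 CPM in VEH-treated females, 9.72, 12.1 and 9.85 CPM in GCV-treated females, 10.9, 8.52 and 10.1 CPM in VEH-treated males and 10.4, 11.1 and 17.1 CPM in GCV-treated males. Col1a2 was at 21.2, 24.6 and 14.1 CPM, 20.8, 18.4 and 21.7 CPM, 20.2, 21.4 and 18.6 CPM, and 18.9, 20.3 and 25.3 CPM in the same order. VEH female 5 had the highest Col1a1 level, and no wild-type liver held a level like that of p16-3MR liver 32. The type IV chains Col4a1 (15.2 to 29.4 CPM) and Col4a2 (10.8 to 16.4 CPM) overlapped between all groups. The direct test of whether the sexes differed in the GCV change called no chain and 0.00791% of all genes (edgeR), and unadjusted it gave 1 of 34 chains against 4.45% of all genes, Col8a2, with a mean of 0.147 CPM.

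The sexes were then compared without GCV. In VEH-treated wild-type livers, 3 of 34 chains passed an adjusted p of 0.05, against 3.82% of all genes (edgeR, Benjamini-Hochberg over 12643 genes). Col27a1 and Col5a3, both fibrillar chains, were lower in females, and Col15a1, the type XV chain of the basement membrane zone, was higher. At an unadjusted p under 0.05, 6 chains differed against 15.2% of all genes. The other 3 were Col18a1 (log2 difference 0.21), Col23a1 (4.43) and Col8a2 (-4.09), the last 2 with means of 0.208 and 0.147 CPM.

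Wild-type Col27a1 was at 7.05, 7.74 and 7.29 CPM in VEH-treated females and 14.4, 26.2 and 27.3 CPM in VEH-treated males. Males were 3.10-fold higher (log2 difference, females minus males, -1.63 ± 0.23, adjusted p = 7.58e-05, edgeR). GCV-treated females (7.68, 6.33 and 8.02 CPM) and GCV-treated males (30.5, 32.4 and 39.1 CPM) were separated too. Averaged over both treatments the difference was -1.91 and every male lay above every female.

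Wild-type Col5a3 was at 2.75, 2.43 and 0.705 CPM in VEH-treated females and 8.78, 8.74 and 7.55 CPM in VEH-treated males, 4.08-fold higher in males (-2.03 ± 0.36, adjusted p = 0.00105, edgeR). With GCV it was at 2.26, 2.30 and 2.55 CPM in females and 10.4, 8.62 and 11.6 CPM in males. Averaged over both treatments the difference was -2.05, and the 6 females and 6 males did not overlap.

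Wild-type Col15a1 was at 5.33, 8.63 and 8.93 CPM in VEH-treated females and 4.26, 2.19 and 1.93 CPM in VEH-treated males, 2.76-fold higher in females (1.47 ± 0.38, adjusted p = 0.03001, edgeR). With GCV it was at 9.49, 7.19 and 8.75 CPM in females and 3.14, 2.05 and 5.19 CPM in males, so that all 6 females lay above all 6 males. The call was lost when VEH female 5, VEH female 6, VEH male 2 or VEH male 3 was left out, with log2 differences of 1.249 to 1.36 and adjusted p of 0.108 to 0.174. Col27a1 and Col5a3 kept their calls when any single liver was left out.

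**Figure D4:**
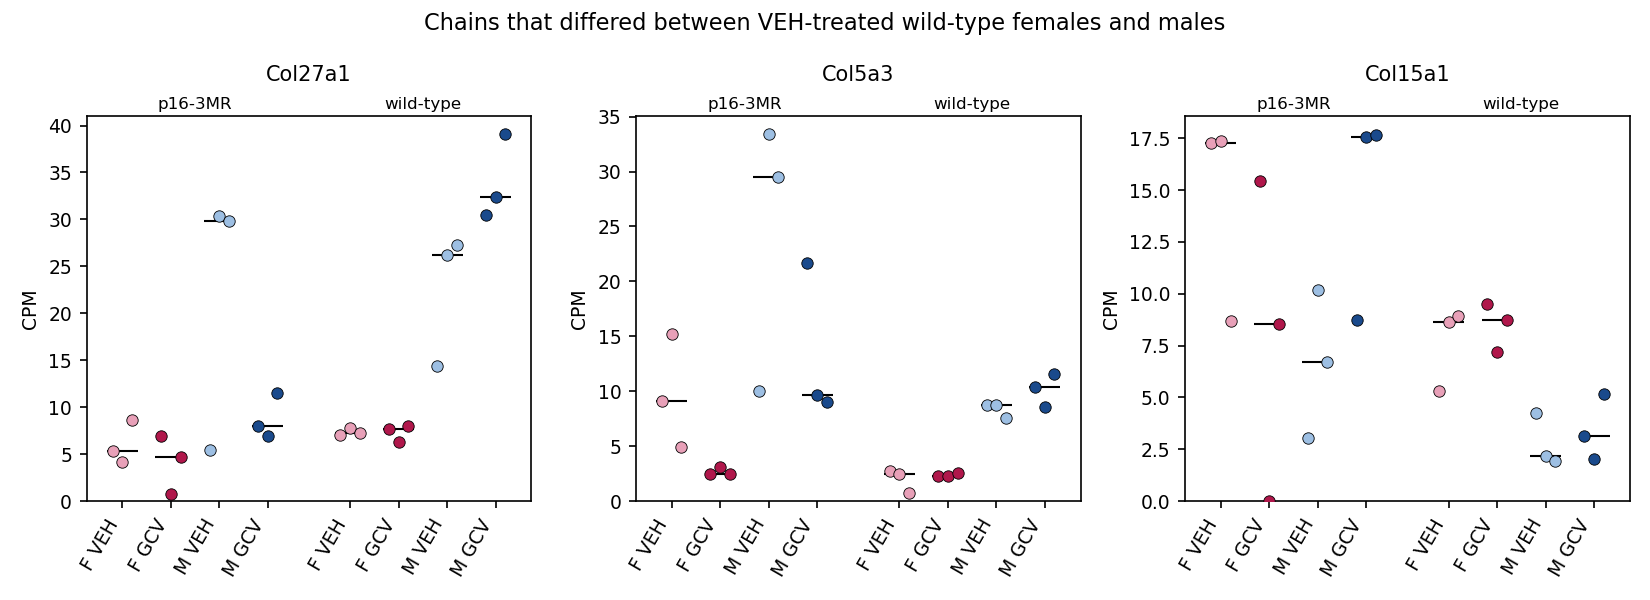
Level of Col27a1, Col5a3 and Col15a1 (CPM after TMM scaling) in each liver, by genotype, sex and treatment; each point is 1 liver and each line the median of 3. In wild-type livers the 6 males lie above the 6 females for Col27a1 and Col5a3 and below them for Col15a1, and p16-3MR females and males overlap.

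The same comparison in VEH-treated p16-3MR livers called no chain, against 0.12% of all genes (edgeR). Unadjusted, 3 of 36 chains against 2.74% of all genes were below 0.05: Col27a1 (-1.84), Col5a3 (-1.32) and Col6a6 (-2.30, mean 0.804 CPM). Col27a1 was at 5.36, 4.196 and 8.68 CPM in females and 5.48, 30.4 and 29.9 CPM in males, and Col5a3 at 9.11, 15.2 and 4.91 CPM and 10.04, 33.4 and 29.5 CPM. VEH male liver 24, whose hepatocyte marker sum was the second lowest, overlapped the females in both. Col15a1 was at 17.3, 17.4 and 8.68 CPM in females and 3.03, 10.2 and 6.72 CPM in males (1.13 ± 0.73, adjusted p = 1, edgeR). Averaged over both treatments, p16-3MR Col5a3 differed by -1.83 (adjusted p = 0.102, edgeR) and Col27a1 by -1.40 (adjusted p = 0.562, edgeR), again lower in females and not past the test. A difference between the genotypes in these sex differences was not tested.

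Cell type markers also differed between wild-type sexes. The 5 stellate cell markers that could be read summed to 43.0 to 54.2 CPM in VEH-treated females and 30.4 to 37.8 CPM in VEH-treated males, and the 6 sinusoidal endothelial markers to 133 to 169 and 113 to 119 CPM. The hepatocyte sum was 26381 to 27154 CPM in females and 28090 to 30786 CPM in males, with Serpina1c lower in females (log2 difference -0.76, adjusted p = 1.94e-05, edgeR), Trf at 0.18 (adjusted p = 0.312, edgeR) and Ttr not past the unadjusted threshold. Their part in the collagen differences was not tested. TMM factors were 1.11 to 1.14 in wild-type females and 0.835 to 0.975 in males.

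The stretches before the starts of these 3 genes are given because the genes differed between the sexes. Each covers the 250 bases before the RefSeq start (GRCm38.p6), 5′ to 3′ on the gene's strand, with capitals for matches, on either strand, to GGGCGG (a GC box, seen as CCGCCC on the other strand) or CCAAT. Col27a1 lies at chr4:63215162-63215411 on the plus strand, within the longer Col27a1 gene of the GENCODE annotation but in none of its exons, Col5a3 at chr9:20815068-20815317 on the minus strand, and Col15a1 at chr4:47207762-47208011 on the plus strand.
Col27a1: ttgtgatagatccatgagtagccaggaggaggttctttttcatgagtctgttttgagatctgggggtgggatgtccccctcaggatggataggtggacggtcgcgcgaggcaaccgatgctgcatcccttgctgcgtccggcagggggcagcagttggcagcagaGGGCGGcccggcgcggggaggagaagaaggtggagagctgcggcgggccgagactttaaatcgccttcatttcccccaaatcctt
Col5a3: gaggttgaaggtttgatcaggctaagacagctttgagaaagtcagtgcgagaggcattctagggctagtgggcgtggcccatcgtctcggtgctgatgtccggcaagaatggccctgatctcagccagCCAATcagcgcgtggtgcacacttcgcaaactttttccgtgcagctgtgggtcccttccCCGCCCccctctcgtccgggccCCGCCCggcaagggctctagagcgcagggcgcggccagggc
Col15a1: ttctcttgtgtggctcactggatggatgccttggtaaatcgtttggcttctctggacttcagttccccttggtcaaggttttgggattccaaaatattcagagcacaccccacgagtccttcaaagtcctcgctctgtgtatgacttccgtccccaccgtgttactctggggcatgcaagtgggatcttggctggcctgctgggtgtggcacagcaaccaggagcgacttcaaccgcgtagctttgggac
Col27a1 held 1 GC box, Col5a3 held 2 and a CCAAT box, and Col15a1 held neither. GGGCGG was in 32.7% and CCAAT in 33.8% of 32851 RefSeq windows of the same length, and in 22 and 13 of the 38 windows of collagen chains. TATAAA (12.4% of windows, 5 of 38) and TTCNNNGAA, the core bound by STAT proteins (7.02%, 2 of 38), had no match in the 3 windows.

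Chains that assemble into 1 protein, or into the same fibrils, were compared by the ratio of their counts within each liver. The count of Col4a1 over that of Col4a2 was 1.67 to 3.49 in the 12 p16-3MR livers, in which Col4a1 itself ranged from 19.6 to 297 CPM, and 1.18 to 2.18 in wild-type livers. Col3a1 over Col1a2 was 1.59 to 3.88 in p16-3MR and 1.13 to 1.77 in wild-type livers. Col1a1 over Col1a2 was 0.333 to 1.34 in p16-3MR livers, with the highest ratio in liver 32 and the lowest, on 4 and 12 counts, in liver 33. In wild-type livers it was 0.341 to 0.910. Col6a1 over Col6a2 was 0.767 to 1.73 in p16-3MR and 0.438 to 2.83 in wild-type livers, where both chains were under 8 CPM. Col6a3 over Col6a1 ranged most widely of the pairs with counts of both chains in every liver, from 0.462 to 2.21 in p16-3MR and from 0.312 to 3.14 in wild-type livers.

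**Figure D5:**
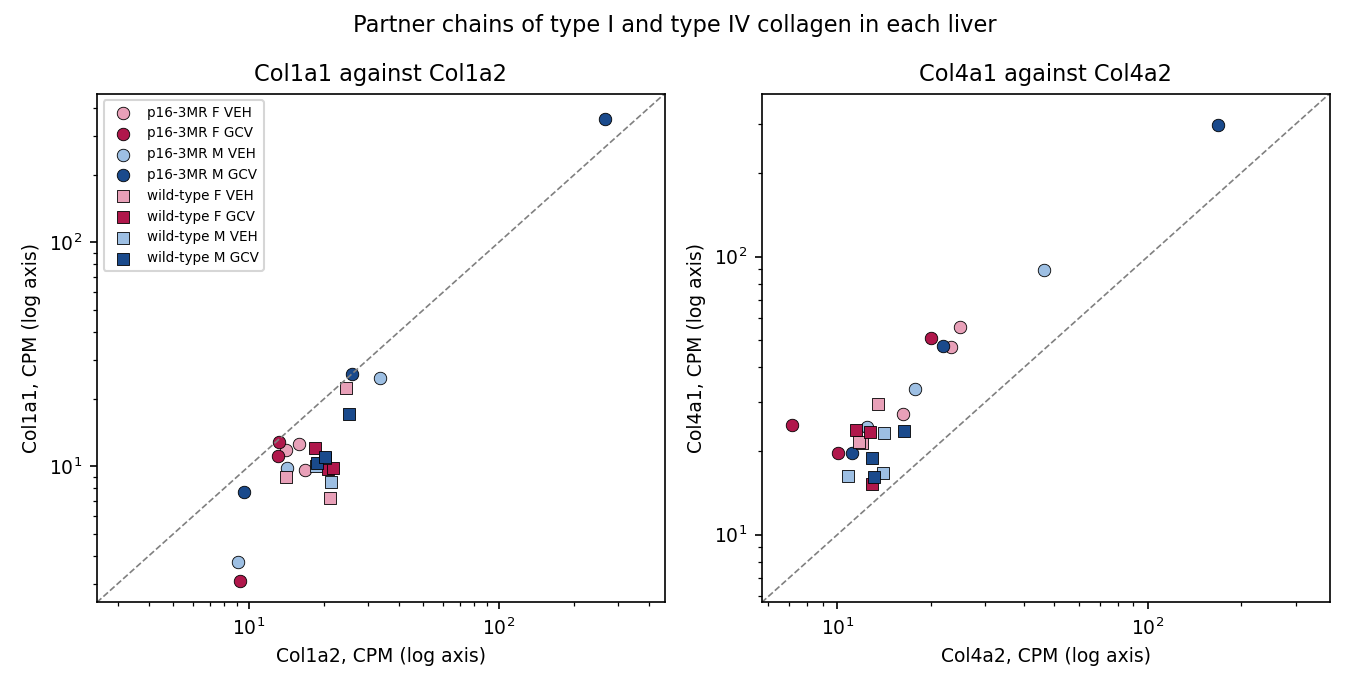
Col1a1 against Col1a2 and Col4a1 against Col4a2 in each of the 24 livers (CPM after TMM scaling, log axes); circles are p16-3MR and squares wild-type livers, and the dashed line marks equal values. In GCV male liver 32, at the upper right, Col1a1 (356 CPM) and Col4a1 (297 CPM) stand high together with their partners.

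Col4a1 and Col4a2 lie head to head on chromosome 8, and their annotated starts overlap by 22 bases at chr8:11312805-11312826 (GRCm38, plus strand). The stretch is shown because 1 short region holds the starts of both genes of the pair.
Col4a1 and Col4a2 shared start: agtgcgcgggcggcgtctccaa
Col4a4 and Col4a3 are arranged in the same way on chromosome 1, with 71 bases between their starts at chr1:82586850-82586920. Col4a3 over Col4a4 was 3.33 in liver 31 and had a median of 0.308 over the 11 p16-3MR livers with Col4a4 counts, at levels mostly under 2 CPM.

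Lists of genes for collagen folding and modification, processing and crosslinking, receptors, proteoglycans and matricellular proteins, and TGF-beta signalling were also read. None of their genes passed an adjusted p of 0.05 in any of the 4 comparisons of either genotype (edgeR). For GCV in p16-3MR livers, 7.37% of all genes had an unadjusted p under 0.05 in females and 1.91% in males. Of 21 folding and modification genes measured, 1 was higher in females with GCV at an unadjusted p under 0.05 (P4ha2, a prolyl hydroxylase). In males 1 was higher (Plod2, a lysyl hydroxylase). The highest P4ha2 level (18.5 CPM, against a median of 3.80 CPM over the p16-3MR livers) was that of GCV female liver 33. Of 11 processing and crosslinking genes, none passed in females and 2 were higher in males, Lox, the lysyl oxidase that crosslinks fibrils (3.23), and Pcolce, the enhancer of procollagen C-proteinase (1.22). Of 10 collagen receptors, Gp6 was lower in females (-5.97) and Itga11, the integrin chain for fibrillar collagen, was higher in males (3.70). Medians over the 12 p16-3MR livers were under the level of 3 counts for Gp6 (0.141 CPM, highest 3.47 CPM) and Itga11 (0 CPM, highest 2.05 CPM). The same held for Lox (0.222 CPM, highest 16.5 CPM), so these folds rest on few counts or few livers. Plod2 had a median of 1.16 CPM and a highest value of 13.9 CPM. The highest values of Lox, Itga11 and Plod2 were all those of GCV male liver 32. Of 13 proteoglycans and matricellular genes, 12 had a lower fitted level in females (median -0.79, where 49.8% of all genes were lower and the median was 0) with none past the unadjusted threshold, and Tnxb was lower in males (-1.12). Of 14 TGF-beta signalling genes, none passed in either sex. The GCV change of Gp6 also differed between the sexes (-6.91), and Colgalt2 (3.15) and Loxl4 (3.35) were higher in VEH-treated females than males, all at an unadjusted p under 0.05 (3.78% of all genes for the first comparison and 2.74% for the second). Colgalt2 was low as well, with a median of 0.371 CPM over the p16-3MR livers.

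In wild-type livers fewer of these genes had a label that named 1 gene. The unadjusted threshold was passed by 4.56% of all genes for GCV in females, 5.06% in males, 4.45% for the difference between these changes and 15.2% between VEH-treated sexes. Of 14 folding and modification genes, 2 were lower in VEH-treated females than males at an unadjusted p under 0.05 (P4hb, -0.29, and P4ha2, -0.72). Of 6 collagen receptors, Itga1 was higher in females (0.36) and was higher with GCV in males (0.32), with a difference between the sexes in that change of -0.51. Of 4 proteoglycans and matricellular genes, Sparc was lower with GCV in females (-0.26). None of 4 processing and crosslinking genes and none of 4 TGF-beta signalling genes passed in these comparisons.

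The low chains were counted as follows. In p16-3MR livers Col6a3, Col6a2, Col5a1, Col12a1, Col13a1, Col16a1, Col4a5, Col11a2, Col4a3 and Col20a1 had means of 1.01 to 9.92 CPM, and a further 14 chains had means of 0.0368 to 0.984 CPM. In wild-type livers 11 chains had means of 1.03 to 5.72 CPM and 15 had means of 0.0739 to 0.748 CPM. Of the chains under 1 CPM, 9 of 14 in p16-3MR and 14 of 15 in wild-type livers had a mean under 3 counts, and differences between groups were not detectable at this depth unless large. The 3′ end of Col4a3 overlaps an exon of C430014B12Rik and that of Col9a3 an exon of Tcfl5, both on the opposite strand, so that reads of those pairs may not be separable.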

How the data were processed

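Smart-3SEQ libraries, which tag 3′ ends, were made from liver RNA. According to the methods and the processing notes, the authors trimmed reads (Trim Galore 0.6.10), checked them (FastQC 0.11.9), quantified transcripts with Salmon 1.10.3 against mm10 and summed them to genes with tximport. The deposited values are estimated counts per gene, made by the authors with Salmon and stored as whole numbers, and no gene has a row sum under 3 in either table. p16-3MR genes carry Ensembl identifiers, of which 21698 of 21755 had a GENCODE symbol. Wild-type labels lack 9 lower-case letters, so that C1a1 stands for Col1a1. Of them 10496 labels matched 1 symbol, 2067 matched several and 80 matched none, and ambiguous labels were kept in the fits but not named.

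Each table was fitted alone in edgeR 4.0.16 (R 4.3.3) on the deposited counts, with TMM factors, 1 mean per group over 12 livers, quasi-likelihood F-tests, and p-values adjusted by Benjamini-Hochberg across the whole table. The method was also run on simulated counts, with the same dispersion for every gene of a table. The simulation held no livers like 32 or 33, so it cannot show how such livers affect the fits. The 3 replicates per group are separate mice in the labels. Standard errors were derived as the absolute log2 fold change divided by the square root of the edgeR F statistic. They include the spread between livers of a group. The limit that a count of 0 allows (3 counts) covers counting error only. Levels are given in every liver for chains with a mean of at least 10 CPM or an adjusted p under 0.05, and other chains are named by an unadjusted p under 0.05. Alternatives were DESeq2 1.42.0, limma 3.58.1 (voom with quality weights), other scaling factors, a low-count filter, fits without mitochondrially encoded genes or with only the groups compared, a replicate block, and leaving out each liver. Sequences are RefSeq GRCm38.p6. Collagen classes, 5 pathway lists, 8 marker lists and the members were chosen with earlier results of these data known.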

Additional observations from a re-analysis of the deposited data

Results flagged for a closer look

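Col18a1 in wild-type livers was lower with GCV in all 3 females (478, 496 and 528 CPM against 533, 575 and 533 CPM with VEH) and higher with GCV in all 3 males (532, 508 and 496 CPM against 489, 468 and 468 CPM). The GCV change differed between the sexes by -0.2369 on the log2 scale (females minus males). The unadjusted p was 0.0828 and the adjusted p was 0.982 (edgeR), so the difference did not pass the test. Col18a1 was flagged by searching the chains with a mean of at least 1 CPM for this opposite pattern. How many of all genes show it was not counted.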

How the results depend on the processing

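Counts of chains past an adjusted p of 0.05 stayed within 1.5 times of the reported count in every setting run, 0 in every comparison except VEH-treated wild-type females against males, where leaving out 1 liver gave 2 to 3. Counts at an unadjusted p under 0.05 moved more, and are given with the share of all genes under that p in the same setting. For p16-3MR females (2 reported) they were 1 with the low-count filter (9.3% of genes), 4 with voom (11.8%), 4 with only the groups compared (7.66%) and 1 to 4 without 1 liver (4.29% to 12.4%) (4 without GCV male 32, 1 without VEH female 27 or 28). For p16-3MR males (2) they were 4 with DESeq2 (1.92%), 8 with voom (23.1%) and 0 to 10 without 1 liver (0.91% to 7.76%) (0 without GCV male 32, 1 without VEH male 25, 4 without GCV female 33, 5 without GCV male 30, 8 without VEH male 24, 10 without GCV male 34, where 4.21% of genes passed). For the sex difference in the p16-3MR change (4) they were 1 with the filter (2.97%) and 1 to 7 without 1 liver (2.22% to 8.48%) (1 without GCV female 33 or VEH female 29, 2 without VEH female 27 or VEH male 26, 7 without GCV male 34). For VEH-treated p16-3MR sexes (3) they were 6 with voom (10.6%), 8 averaged over treatments (7.05%) and 1 to 4 without 1 liver (2.01% to 3.57%) (1 without VEH female 27 or 28). In wild-type mice they were 0 with DESeq2 (2.93%) and 0 to 2 without 1 liver (3.37% to 5.31%) for females (1; 0 without GCV female 4, VEH female 5 or 6, 2 without VEH female 4), 3 with voom (8.81%) and 0 to 1 without 1 liver (3.42% to 9.68%) for males (1; 0 without GCV male 3 or VEH male 1), and 0 with the filter (4.95%), 2 with voom (6.75%) and 0 to 2 without 1 liver (3.51% to 6.98%) for the sex difference in the change (1; 0 without GCV female 6, GCV male 2 or VEH male 1, 2 without GCV female 5, VEH female 4 or 6). For VEH-treated wild-type sexes (6) they were 9 with voom (18.2%) and 3 to 7 without 1 liver (11.5% to 17.4%) (3 without VEH female 5 or VEH male 3). The fold changes of 3 chains reversed: Col4a3 in p16-3MR females without GCV female 31 (-0.20), Col1a2 in p16-3MR males without GCV male 32 (-0.15) and Col5a3 in wild-type females without VEH female 6 (-0.13); without 1 liver each they ranged up to 3.90, 3.15 and 0.58. The median chain change in p16-3MR males was -0.53 without GCV male 32, and the median sex difference of VEH-treated p16-3MR livers, -0.18, was 0.44 without VEH male 24. The cause was not tested.

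Without TMM factors, mean summed levels in p16-3MR livers were 346 (basement membrane) and 42.3 CPM (other) in GCV females, 754.6 CPM (basement membrane) in GCV males and 189 CPM (fibrillar) in VEH males. In wild-type livers they were 609.5, 89.45 and 66.26 CPM (basement membrane, fibrillar, other) in GCV females, 670.5 CPM (basement membrane) in VEH females, 492.8 CPM (basement membrane) in GCV males, and 454.3, 83.28 and 44.38 CPM in VEH males. Whether the replicate numbers pair the wild-type samples could not be decided, since each group holds 3 livers and deviations from a group mean depend on each other. Same-number correlations of deviations were -0.0450, -0.0570 and 0.00178 in females and 0.196, 0.283 and -0.0663 in males. Different-number correlations were -0.0450 to 0.0847 in females and -0.349 to 0.170 in males. With the replicate block, the count at an unadjusted p under 0.05 for the sex difference in the wild-type change was 0 (5.27% of genes). p16-3MR groups share no replicate number. Depth limits chains under 1 CPM and liver 33.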

Other observations

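Marker lists not described above gave these values for GCV against VEH. Of 8 cholangiocyte markers in p16-3MR livers, Sox9 was higher in females (log2 fold change 2.10) and Krt19 (3.77) and Epcam (1.72) were higher in males at an unadjusted p under 0.05, and none passed adjustment (edgeR). The highest Sox9 level (37.1 CPM, against a median of 8.23 CPM over the p16-3MR livers) was that of GCV female liver 33. Krt19 was low, with a median of 0.532 CPM over the p16-3MR livers and a highest value of 16.9 CPM. Of 10 portal fibroblast and myofibroblast markers, all measured in p16-3MR livers, Mfap4 (median 0.516 CPM) was lower in females (-2.50). Of the 5 that could be read in wild-type livers, Acta2 (0.95) and Cd34 (2.06) were higher in females, again before adjustment only. In these comparisons 7.37% (p16-3MR females), 1.91% (p16-3MR males) and 4.56% (wild-type females) of all genes passed the unadjusted threshold. Of 7 vascular endothelial markers, Wnt2 was lower in p16-3MR males (-2.41). None of the 6 mesothelial markers passed the unadjusted threshold for GCV in p16-3MR livers.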
